A study of Rattus norvegicus with 183 samples.

Results

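The genes described are the 42 genes of the deposited table whose symbol starts with RT1- once 6 class II genes (RT1-Ba, RT1-Bb, RT1-Da, RT1-Db1, RT1-DMa and RT1-DMb) are set aside. They are 42 of 38354 genes measured in the posterior ventral tegmental area of heterogeneous stock rats. The area lies in the midbrain and is known for its dopamine neurons, and the rats are outbred animals that descend from several inbred founder strains. PolyA RNA was sequenced from 183 samples, of which 31 are labelled as removed and 152 have values. The labels name no treatment, sex or age. Apart from notes on relabelling (5 libraries with values) and recovery (12), they divide the animals only by the form of the identifier. It is hexadecimal in 88 libraries with values, decimal in 63 and of another form in 1. No genotype itself is given in the labels, although most removed samples are labelled as having no matching genotype sample.

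The RT1 complex is the major histocompatibility complex of the rat. Class I molecules are heavy chains that pair with the light chain beta-2 microglobulin, encoded by B2m outside the complex, and present peptides at the cell surface. RT1-A genes encode classical class I heavy chains, whereas RT1-CE, RT1-N, RT1-S, RT1-T24 and RT1-M genes are counted among the non-classical ones. RT1-M3-1 is the counterpart of mouse H2-M3, which binds N-formylated peptides, and RT1-S3 has the mouse synonym H2-T23, the gene of Qa-1. Class I regions differ between rat strains in sequence and in the number of gene copies, and the reference genome carries the copies of 1 strain. A read from a gene that the reference lacks can therefore be assigned to the most similar copy it holds, and the share of such reads was not tested. In mouse and rat brain, microglia and endothelium are known to express class I genes, and neurons can do so too.

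Values are counts per 1e6 estimated counts of a library (CPM), or log2(CPM + 1) where stated. The description rests on the 141 libraries in which Th, the rate-limiting enzyme of dopamine synthesis, reached 10 CPM, which are 87 with a hexadecimal identifier, 53 with a decimal one and 1 with another form. They held 15.2 to 57.2 M (1e6) estimated counts with a median of 24.2 M. The other 11 libraries, 1 hexadecimal and 10 decimal, were used only in the alternatives and among the closing observations. At these depths 3 counts, taken as the lower limit of detection, were 0.0525 to 0.198 CPM, a limit that covers counting error only. Each library was treated as 1 animal, and p-values measure the spread between libraries. A library with a hexadecimal identifier, number 39, stood apart: its 8 interferon response genes summed to 1214 CPM, against 171 CPM in the next highest library and a median of 53.7 CPM. It also had the highest values of 4 of the genes described, with 8.99 CPM of RT1-N2, 24.6 CPM of RT1-N3, 126 CPM of RT1-S3 and 15.7 CPM of RT1-CE11. Results were recomputed without it.

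Of the 42 genes, 17 reached the filter on low values, a mean log2(CPM + 1) of 1 or more, as 15546 genes of the table did. The lowest mean inside the filter was 1.05 (RT1-S2) and the highest outside was 0.860 (RT1-CE10). Of the 25 genes outside, RT1-M10-1 was at 0 in every library, 12 had fewer than 3 counts in over 50% of the libraries, and 12 never reached 1 CPM, sets that share genes. All 42 genes lie on chromosome 20, and each deposited position matches the start or end that the GRCr8 reference gene table gives for that symbol. Cut wherever neighbours are over 400 kb apart, the genes fall into 4 blocks. The first block holds 10 RT1-M genes (chr20:984174-1992028), of which 1, RT1-M3-1, passed the filter. The second holds 11 genes of the T, O, N and S series (chr20:2605478-2766304) and 7 passed. The third holds 14 RT1-CE genes (chr20:3265548-3564428) and 7 passed. The fourth holds 7 genes (chr20:4541654-4907139) and RT1-A3 and RT1-A2 passed. In the fourth block RT1-Db2, RT1-DOb and RT1-DOa bear class II names and reached at most 1.99, 1.39 and 0.759 CPM. RT1-Ha, next to RT1-DOa, reached at most 0.556 CPM and was not assigned to a class here. DO molecules are known to modulate the class II peptide exchange factor DM.

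Promoters are shown for the 2 genes with separate ranges between animals, RT1-CE16 and RT1-CE15, and for the classical pair RT1-A3 and RT1-A2, whose levels ran opposite. Those of RT1-CE16 and RT1-A3 were 91.3% identical over 253 aligned bases. A promoter window, 250 bases before to 50 bases after a start, was in the RefSeq table (GRCr8) for 37 of the 42 genes. The windows are those of the table, and their starts can differ from the deposited positions. They are RT1-CE16 (chr20:3265394-3265693, minus strand), RT1-CE15 (chr20:3283721-3284020, minus strand), RT1-A3 (chr20:4849201-4849500, plus strand) and RT1-A2 (chr20:4872621-4872920, plus strand), read 5′ to 3′. Capitals mark matches on either strand to GGGGATTC (resembling a kappaB site), GAANNGAAA (resembling an interferon regulatory factor site), TGACGC (resembling the X2 box) and CTGATTGG (a CCAAT box), motifs of the kind known from class I promoters.
RT1-CE16: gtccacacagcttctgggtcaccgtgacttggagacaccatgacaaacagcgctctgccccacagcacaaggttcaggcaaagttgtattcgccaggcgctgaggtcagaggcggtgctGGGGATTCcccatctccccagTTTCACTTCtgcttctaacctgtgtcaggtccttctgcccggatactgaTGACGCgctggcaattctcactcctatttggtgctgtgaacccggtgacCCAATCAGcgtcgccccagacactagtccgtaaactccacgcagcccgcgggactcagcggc
RT1-CE15: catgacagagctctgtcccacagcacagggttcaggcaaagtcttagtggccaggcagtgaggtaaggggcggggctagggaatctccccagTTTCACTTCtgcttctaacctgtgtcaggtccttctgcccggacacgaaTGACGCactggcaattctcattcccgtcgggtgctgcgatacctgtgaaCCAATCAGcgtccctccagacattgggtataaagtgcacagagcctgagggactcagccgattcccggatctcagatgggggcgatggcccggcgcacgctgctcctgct
RT1-A3: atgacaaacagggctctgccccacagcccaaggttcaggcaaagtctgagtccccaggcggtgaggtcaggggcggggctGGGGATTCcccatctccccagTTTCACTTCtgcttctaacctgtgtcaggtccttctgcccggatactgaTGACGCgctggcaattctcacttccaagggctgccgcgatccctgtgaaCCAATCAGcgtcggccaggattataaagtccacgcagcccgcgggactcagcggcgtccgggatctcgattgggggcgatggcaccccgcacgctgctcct
RT1-A2: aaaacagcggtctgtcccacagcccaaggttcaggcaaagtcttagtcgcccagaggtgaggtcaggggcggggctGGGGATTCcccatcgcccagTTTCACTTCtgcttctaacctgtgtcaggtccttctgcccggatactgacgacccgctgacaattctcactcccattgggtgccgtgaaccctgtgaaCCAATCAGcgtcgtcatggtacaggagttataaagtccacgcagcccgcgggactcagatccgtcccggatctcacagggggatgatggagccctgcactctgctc
The windows of RT1-CE16 and RT1-A3 held all 4 motifs, that of RT1-CE15 lacked GGGGATTC and that of RT1-A2 lacked TGACGC. Over the 37 windows GGGGATTC was found in 9, against 0.786% of 33469 windows of the table. GAANNGAAA was found in 13 (8.54% of all windows), CTGATTGG in 15 (3.50%) and TGACGC in 4 (6.73%). The motifs were picked as known from class I promoters, and many of the RT1 windows resemble each other. The matches are therefore not independent, and their excess over all windows is no test. A match of letters is no evidence of binding.

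RT1-CE16, whose synonyms include RT1-Uc, was the gene that differed most between animals. It ranged from 0.170 to 135 CPM with a median of 15.9 CPM, and its values left an interval of 1.35 log2 units empty, from 3.79 to 11.2 CPM. Above it lay 92 libraries, with a lowest value of 11.2, a median of 24.8 and a highest of 135 CPM, and below it 49 libraries, with 0.170, 1.19 and 3.79 CPM. Every library had at least 3 counts, so the lower range is low but not at 0. The upper range held 54 of 87 hexadecimal and 37 of 53 decimal libraries.

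RT1-CE15, 18.3 kb from RT1-CE16, was the other gene past the filter with separate ranges, defined as an empty interval of at least 0.5 log2 units with at least 5 libraries on each side. Its upper range held 32 libraries with a lowest value of 7.62, a median of 10.7 and a highest of 20.5 CPM. Its lower range held 109 libraries with 0.325, 0.941 and 3.49 CPM, and the interval between them was 0.94 log2 units wide. The upper range held 13 of 87 hexadecimal and 18 of 53 decimal libraries. Among all genes tested, 65 of 15546, or 0.418%, had separate ranges, against 2 of these 17. Among the 65, RT1-CE16 had the 14th widest interval and RT1-CE15 the 30th widest.

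**Figure D1:**
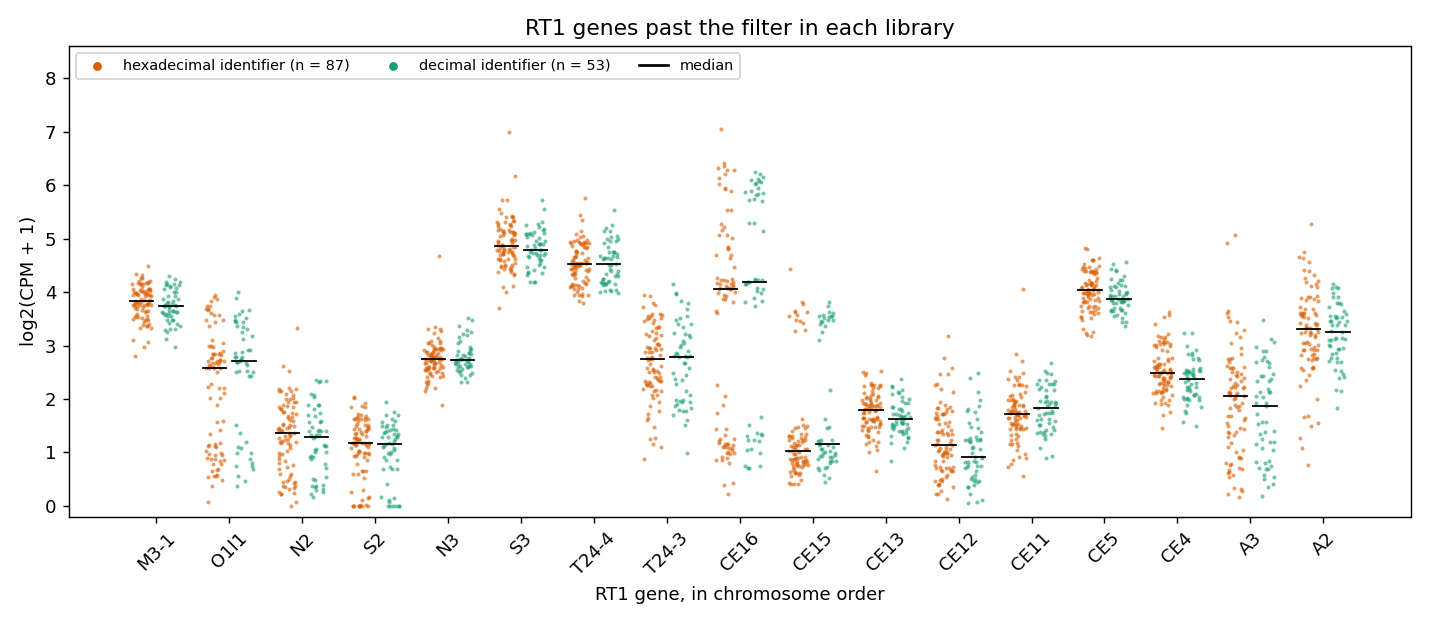
Level of the 17 RT1 genes past the filter in each library on a log2(CPM + 1) scale, in chromosome order, with 87 hexadecimal libraries left of 53 decimal ones for each gene and black lines at the medians. RT1-CE16 and RT1-CE15 fall into separate ranges in both formats, whereas the values of the other genes form a continuum or, in RT1-O1l1, leave a narrower interval.

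Genes outside the filter showed like patterns. RT1-CE14, annotated as a miscellaneous RNA, had 1.42 to 4.16 CPM (median 2.36 CPM) in 32 libraries and at most 0.921 CPM (median 0.252 CPM) in 109, with 0.33 log2 units empty between. RT1-A1, a classical gene, had 2.53 to 6.66 CPM in 19 libraries and at most 1.39 CPM in 122. RT1-CE7 had at least 3 counts, 0.183 to 4.28 CPM, in 26 libraries and fewer in 115, of which 112 were at 0. Its read assignment is uncertain because its span overlaps those of RT1-CE5 and RT1-CE4.

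The upper ranges of RT1-CE14, RT1-CE15 and RT1-CE16 were nested, and RT1-CE7 did not follow them. All 32 libraries in the upper range of RT1-CE15 were in the upper range of RT1-CE16, and the 32 libraries in the upper range of RT1-CE14 were the same ones. In these 32 libraries RT1-CE7 never reached 3 counts, whereas it did in 20 of the other 60 libraries in the upper range of RT1-CE16 and in 6 of the 49 in its lower range. The level of RT1-CE16 differed with RT1-CE15 too: of the libraries with at least 50 CPM of RT1-CE16, 29 between 50 and 100 CPM and 2 between 100 and 200 CPM, all were in the upper range of RT1-CE15. So was 1 of the 14 with 25 to 50 CPM, and none of the 47 with 4 to 25 CPM or of the 49 below. These bounds were chosen after the values were seen. The 2 libraries above 100 CPM of RT1-CE16, 1 hexadecimal and the 1 with another identifier, also had the highest RT1-CE15. Within the upper range of RT1-CE16 its Pearson r with RT1-CE15 was 0.88, and within the lower range 0.17. That upper range holds libraries of both RT1-CE15 ranges, 32 upper and 60 lower, so the r of 0.88 includes the step between them.

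**Figure D2:**
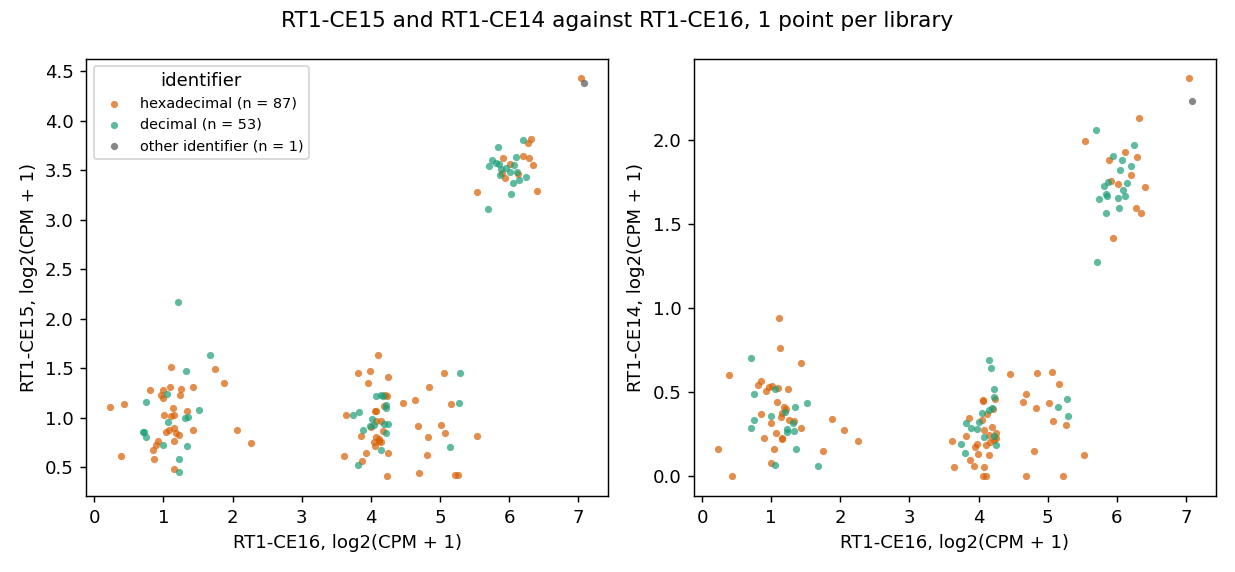
RT1-CE15 (left) and RT1-CE14 (right) against RT1-CE16, both axes log2(CPM + 1), 1 point per library with hexadecimal, decimal and other identifiers in different colours. The 32 libraries with high RT1-CE15 are the 32 with high RT1-CE14, and none of them is among the 49 libraries with low RT1-CE16.

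Taking the upper or lower state of RT1-CE16, RT1-CE15, RT1-A1 and RT1-CE7 together, 10 of 16 possible patterns were seen. The commonest, all 4 low, was found in 36 libraries (25.5%), 22 hexadecimal and 14 decimal. RT1-CE16 alone was high in 35 libraries (25 hexadecimal, 10 decimal), RT1-CE16 with RT1-CE15 in 30 (12 hexadecimal, 17 decimal and the 1 other), and RT1-CE16 with RT1-CE7 in 17 (11 hexadecimal, 6 decimal). The remaining 6 patterns had 2 to 7 libraries each. RT1-A1 was high in 10 of the 92 libraries with high RT1-CE16 and in 9 of the 49 with low RT1-CE16. Whether these patterns follow haplotypes was not tested, as no genotype was used here.

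Among the 7 genes of the T, O, N and S block, RT1-O1l1 ran opposite to RT1-N2, RT1-S2 and RT1-T24-3. RT1-O1l1 had 0.0467 CPM at the lowest, a median of 5.26 and 15.0 CPM at the highest. Its widest interval was 0.29 log2 units (2.02 to 2.69 CPM), with 94 libraries above and 47 below, and so it missed the rule for separate ranges over all libraries and met it among the decimal ones. RT1-N2 had 0, 1.50 and 8.99 CPM, RT1-S2 0, 1.25 and 3.09 CPM, and RT1-T24-3 0.839, 5.70 and 16.7 CPM (lowest, median and highest). The 3 libraries with the least RT1-N2 (0, 0.0526 and 0.120 CPM) had 11.9, 10.9 and 10.1 CPM of RT1-O1l1. The 3 libraries with the most RT1-N2 (4.72, 5.13 and 8.99 CPM) had 1.95, 0.722 and 1.20 CPM of RT1-O1l1. From the other side, the 3 libraries with the most RT1-O1l1 (14.1, 14.5 and 15.0 CPM) had 0.168, 0.172 and 0.291 CPM of RT1-N2. The 3 libraries with the least RT1-O1l1 (0.0467, 0.2977 and 0.2998 CPM) had 1.46, 3.25 and 3.08 CPM, the first of them under the RT1-N2 median.

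The correlations of the 136 pairs of genes past the filter were computed over 141 libraries on the log2(CPM + 1) scale, with two-sided permutation p-values (100000 resamples, adjusted over the 136 pairs). The most negative was that of RT1-O1l1 and RT1-N2 (r = -0.76, Spearman rho = -0.74, adjusted permutation p = 3.16e-05 for r and 3.58e-05 for rho). The raw p of 1e-05 was the smallest that the resamples can give, and the same values hold for the other named pairs. Without the 2 libraries farthest from the median r was -0.76, and it was -0.70 among hexadecimal and -0.86 among decimal libraries. RT1-O1l1 was likewise opposite to RT1-T24-3 (r = -0.71, rho = -0.72, r without 2 libraries -0.71, hexadecimal -0.66, decimal -0.82). Its relation to RT1-S2 was r = -0.67 (rho = -0.65, r without 2 libraries -0.69, hexadecimal -0.66, decimal -0.69). The relation was weaker with the other 3 genes of the block, at r = -0.35 for RT1-T24-4, -0.33 for RT1-S3 and -0.18 for RT1-N3, the last short of the bound of -0.3 used below for an opposite pair.

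Part of these relations lies between the 2 sides of the RT1-O1l1 interval. In the 94 libraries above it r with RT1-N2 was -0.59, with RT1-T24-3 -0.55 and with RT1-S2 -0.67. RT1-S2 had fewer than 3 counts in 21 of the 141 libraries, 14 of them at 0. The libraries at 0 all lay above the RT1-O1l1 interval, so the r of -0.67 includes values under the detection limit. In the 47 libraries below it the values were 0.03, -0.22 and 0.37, none of which reached -0.3. The spans of RT1-O1l1 and RT1-N2 overlap in the reference, as do those of RT1-O1l1 and RT1-S2, so that the assignment of reads between them is uncertain. The spans of RT1-O1l1 and RT1-T24-3 do not.

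The most concordant pairs were in the same block. RT1-S3 and RT1-T24-4 correlated at r = 0.80 (rho = 0.81, r without 2 libraries 0.79, hexadecimal 0.78, decimal 0.88). RT1-S3 had 12.0 CPM at the lowest, a median of 27.6 and 126 CPM at the highest, and RT1-T24-4 12.8, 22.1 and 52.9 CPM. RT1-N2 and RT1-T24-3 also reached r = 0.80 (rho = 0.80, r without 2 libraries 0.79, hexadecimal 0.76, decimal 0.86). RT1-N2 and RT1-S2 followed with r = 0.73 (rho = 0.69), RT1-S2 and RT1-T24-3 with 0.69 (rho = 0.68) and RT1-S3 and RT1-T24-3 with 0.65 (rho = 0.64). In the first 2 of these 3 pairs r stayed positive on both sides of the RT1-O1l1 interval, at 0.62 and 0.58 above it and 0.49 and 0.42 below it.

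**Figure D3:**
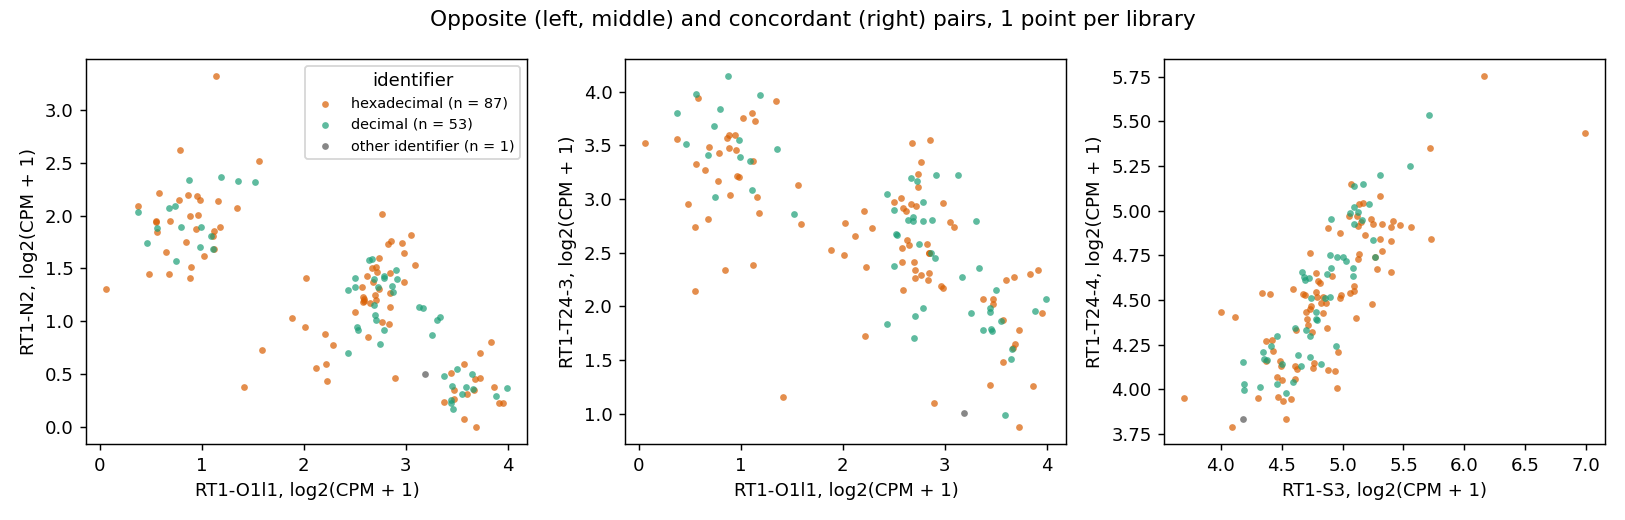
RT1-N2 (left) and RT1-T24-3 (middle) against RT1-O1l1, and RT1-T24-4 against RT1-S3 (right), axes in log2(CPM + 1), 1 point per library coloured by identifier. In the left and middle panels the other gene tends to be lower where RT1-O1l1 is higher (r = -0.76 and -0.71), although not among the libraries with the least RT1-O1l1 in the left panel, and in the right panel both genes move together (r = 0.80).

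RT1-CE16 went with RT1-O1l1: 83 libraries were in the upper side of both, 38 in neither, 9 in that of RT1-CE16 only and 11 in that of RT1-O1l1 only. Within the ranges of RT1-CE16 the relation was weak, with r = 0.05 in the upper and -0.10 in the lower. The pairs of RT1-CE16 with RT1-T24-3 and RT1-N2 were among the 5 most negative, but within the upper range r was -0.27 and -0.17 and within the lower -0.04 and -0.02. These relations therefore lie mainly between the ranges, although that with RT1-T24-3 was weakly negative in the upper range too. No r over all libraries is given for these pairs.

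The classical genes RT1-A3 and RT1-A2 ran against each other as well, a pair picked out after its values were seen. RT1-A3 had 0.126 CPM at the lowest, a median of 2.82 and 32.4 CPM at the highest, and RT1-A2 0.707, 8.70 and 37.7 CPM. Their r was -0.51 (rho = -0.54, adjusted permutation p = 3.16e-05, r without 2 libraries -0.51, hexadecimal -0.50, decimal -0.59). The 2 genes are 23.3 kb apart, and their promoters shown above were 90.4% identical over 291 aligned bases. Similar copies can compete for reads, and the part of this in their relation was not tested. Over the 30 pairs whose promoters were at least 80% identical over at least 150 bases, a bound set after seeing the data, the median r was 0.154, with 5 opposite and 9 concordant pairs. Over the other 106 pairs it was 0.122, with 16 opposite and 31 concordant ones.

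In all, 21 of 136 pairs were opposite (r of -0.3 or lower) and 40 concordant (r of 0.3 or higher). Pairs with RT1-CE16 or RT1-CE15 made up 9 of the 21 and 4 of the 40. With an adjusted p below 0.05, 33 pairs were negative and 56 positive. This test was not run on pairs of other genes, so these counts have no background beside them. Of the 43 pairs within 500 kb, 10 were opposite (23.3%) and 17 concordant (39.5%). Pairs of other genes of the table within 500 kb were opposite in 13.1% and concordant in 25.5% of cases. Of the 93 pairs farther apart, 11 were opposite (11.8%) and 23 concordant (24.7%), against 13.5% and 23.5% of pairs of other genes within 4000 kb. That last set includes the pairs within 500 kb, so its distances are not the same. Pairs share genes and libraries, so these shares are a description.

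RT1-O1l1 had the most opposite partners, 7 of 16, followed by RT1-CE16 with 6. RT1-S3 and RT1-T24-4 had the most concordant ones, 8 each. RT1-M3-1, alone in its block past the filter, had no opposite partner and 1 concordant one (RT1-O1l1). Within the T, O, N and S block 5 of 21 pairs were opposite and 12 concordant, and within the CE block 4 of 21 and 5. Between the 2 blocks 5 of 49 pairs were opposite and 14 concordant. Across the 136 pairs the rank correlation of distance with r was -0.15 and with the size of r -0.32, and without RT1-M3-1 -0.11 and -0.27 over 120 pairs.

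**Figure D4:**
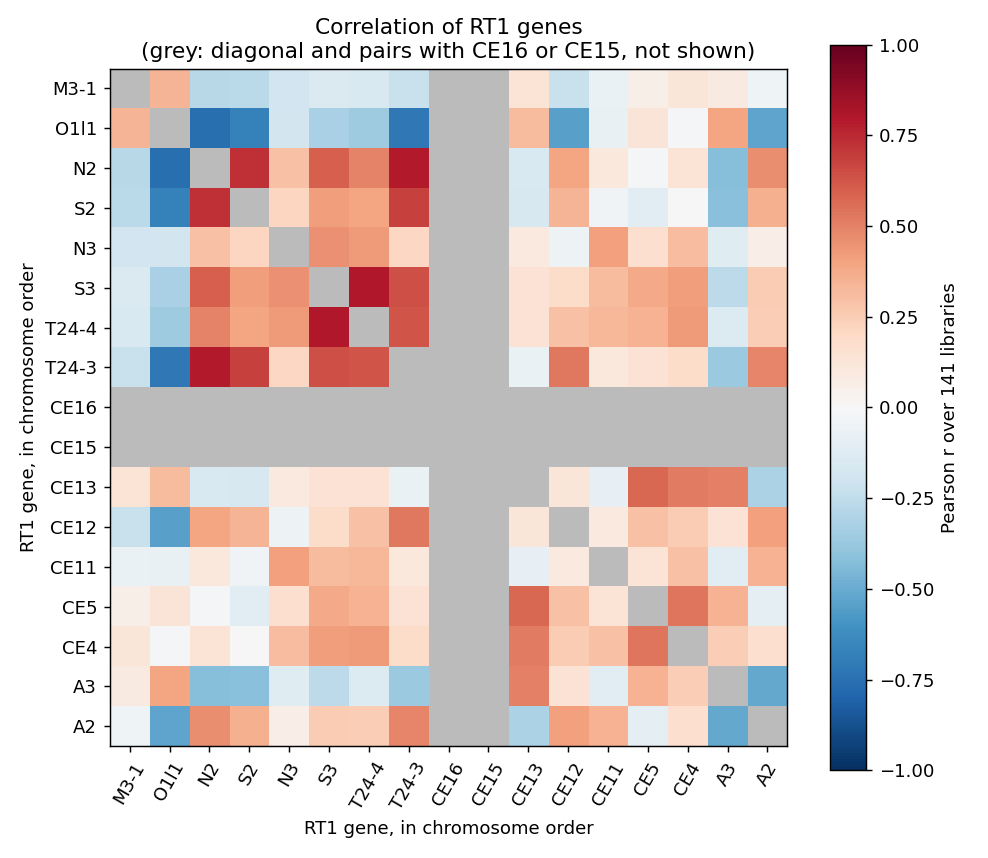
Pearson r over 141 libraries for pairs of the 17 RT1 genes in chromosome order, red for positive and blue for negative, with pairs of RT1-CE16 and RT1-CE15 left grey because those genes have separate ranges. The RT1-O1l1 row is blue against RT1-N2 (-0.76), RT1-T24-3 (-0.71) and RT1-S2 (-0.67), which are red among themselves.

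Genes that went with the level of RT1-CE16 or RT1-CE15 lay mostly near them. In the limma fit on the standardised level of RT1-CE16 with format as a covariate (140 libraries), 7 of 16 other RT1 genes passed an adjusted p of 0.05. The slopes are over both ranges of RT1-CE16 together and include the step between them. RT1-O1l1 (slope 0.69 ± 0.07 log2 units per SD of RT1-CE16, SE, adjusted p = 1.02e-13) and RT1-CE15 (0.68 ± 0.07, adjusted p = 2.37e-13) were higher where RT1-CE16 was higher. RT1-T24-3 (-0.47 ± 0.05), RT1-N2 (-0.40 ± 0.04), RT1-CE12 (-0.35 ± 0.04), RT1-S2 (-0.31 ± 0.04) and RT1-A2 (-0.24 ± 0.06, adjusted p = 0.0457) were lower. Inside the ranges of RT1-CE16, however, RT1-A2 went the other way, with r = 0.27 in the upper and 0.70 in the lower. RT1-S2 kept its sign in both (-0.30 and -0.38), and RT1-CE12 in the upper only (-0.46 and 0.24). For RT1-O1l1, RT1-T24-3 and RT1-N2 the weak r inside the ranges is given above. Of 177 other genes within 5 Mb, 20 passed (11.3%), 13 higher and 7 lower, and of 15352 genes elsewhere 14 did (0.0912%), all higher. Among hexadecimal and decimal libraries taken alone, none of the genes elsewhere passed.

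For RT1-CE15 the same limma fit called 3 of 16 RT1 genes, RT1-CE16 (1.26 ± 0.13 log2 units per SD of RT1-CE15, SE, adjusted p = 4.60e-13) and RT1-CE11 higher and RT1-CE12 lower. Inside the upper and lower ranges of RT1-CE15 r was 0.28 and 0.11 for RT1-CE11, and -0.02 and 0.08 for RT1-CE12. Of the 177 other genes within 5 Mb, 8 passed (4.52%), 3 higher and 5 lower. None of the 15352 elsewhere did (0%), although 898 of them had an unadjusted p below 0.05, and 2 passed among decimal libraries alone.

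The genes outside the family with the largest correlation of either sign with RT1-CE16 over the 141 libraries were LOC120098829, LOC134483853, LOC120098828, LOC120098833 and LOC134483847, all long non-coding RNAs on chromosome 20. LOC120098828 was higher where RT1-CE16 was higher, and the other 4 were lower in the limma fit: LOC134483853 had a slope of -0.28 ± 0.03 per SD of RT1-CE16, LOC120098833 -0.27 ± 0.03 and LOC134483847 -0.23 ± 0.03. LOC120098829, 57.3 kb away, had at most 3.97 CPM (median 1.46 CPM) and a slope of -0.39 ± 0.03 per SD of RT1-CE16 (limma, adjusted p = 4.94e-18). Within the upper range of RT1-CE16 its r was -0.46, and within the lower 0.17. LOC120098828 had at most 12.6 CPM (median 1.19 CPM), and its r with RT1-CE16 was 0.89 within the upper range and 0.06 within the lower. LOC120098828 itself met the rule for separate ranges, with 0.55 log2 units empty, so the r of 0.89 can include that step.

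LOC120098828 also had the largest correlation with RT1-CE15, with a slope of 0.75 ± 0.03 per SD of RT1-CE15 (limma, adjusted p = 1.23e-51) and an r of 0.61 within its upper range and 0.14 within its lower. Its deposited position lies 0.458 kb from that of RT1-CE15 and their spans overlap. Whether counting used the strand is not stated and exons were not compared, so how far reads of the 2 genes can be told apart is not known. Next by the size of the correlation, LOC108353253, whose span also overlaps RT1-CE15, was higher with it (slope 0.28 ± 0.03). Lower with it were LOC120098833 (-0.27 ± 0.03), LOC134483853 (-0.19 ± 0.04) and Fkbpl, a protein-coding gene 822 kb away (-0.10 ± 0.02, limma, adjusted p = 1.45e-05). Inside the upper range of RT1-CE15 their r was -0.39, 0.02 and -0.18, and inside the lower 0.18, 0.09 and 0.04.

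B2m, which encodes the light chain that class I heavy chains share, had a lowest value of 245, a median of 364.5 and a highest of 606 CPM. Where it was higher, 11 of the 17 RT1 genes were higher and none was lower (limma, log2 units per SD of B2m, format as a covariate, 140 libraries). The largest slopes were those of RT1-CE4 (0.22 ± 0.03, SE, adjusted p = 1.47e-09), RT1-T24-4 (0.21 ± 0.03, adjusted p = 3.49e-10), RT1-S3 (0.19 ± 0.03, adjusted p = 1.73e-07) and RT1-T24-3 (0.18 ± 0.06, adjusted p = 0.00734). RT1-CE11, RT1-A2, RT1-CE12 and RT1-CE5 lay at 0.16, and RT1-M3-1, RT1-CE13 and RT1-N3 at 0.08 to 0.09. The median slope was 0.09 for the RT1 genes and 0.02 for all 15545 genes tested, of which 29.9% (4651) were higher and 12.4% (1922) lower. With median-of-ratios scaling 3707 of all genes were higher and 3686 lower, and 10 RT1 genes were higher and none lower.

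The 6 genes not called included the 4 with the largest SD over the 141 libraries. RT1-CE16 had a slope of -0.02 ± 0.17 (adjusted p = 0.934), RT1-CE15 0.05 ± 0.09 (adjusted p = 0.707), RT1-O1l1 -0.10 ± 0.09 (adjusted p = 0.410) and RT1-A3 0.08 ± 0.08 (adjusted p = 0.433), all from limma. RT1-N2 (0.06 ± 0.06) and RT1-S2 (0.02 ± 0.05) did not pass either. The SE of RT1-CE16 was larger than that of any called gene, and a slope of the called size was not detectable in RT1-CE16 at this spread.

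**Figure D5:**
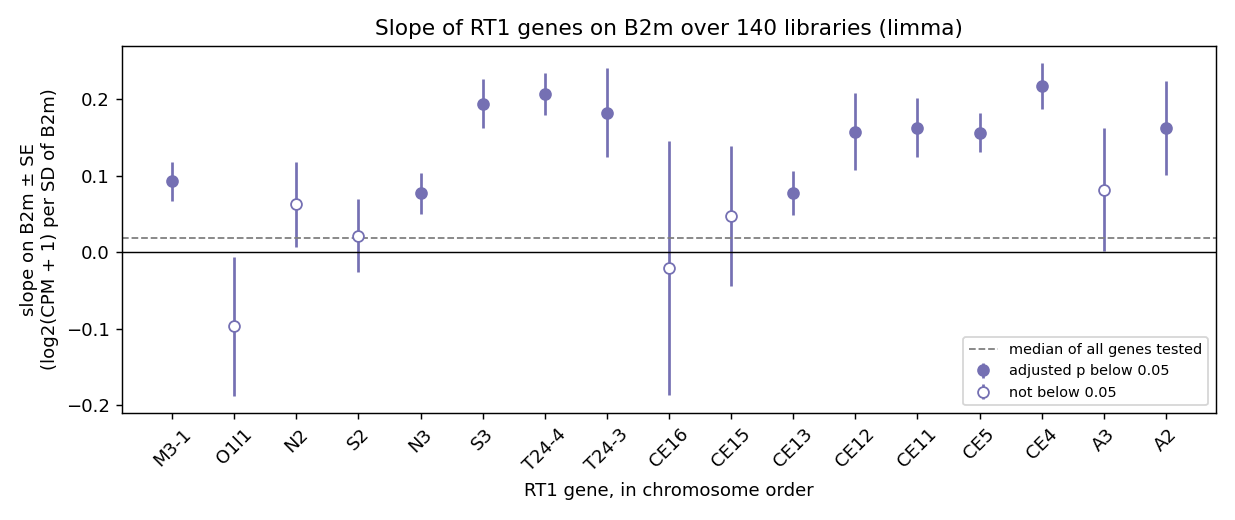
Slope of each of the 17 RT1 genes on B2m with its SE (limma, log2(CPM + 1) per SD of B2m, 140 libraries), filled where the adjusted p was below 0.05, with the median of all genes tested as a dashed line. The 11 filled genes lie between 0.08 and 0.22, and RT1-CE16 has the widest error bar.

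Other genes of class I antigen presentation went the same way. Of 19 tested besides B2m, 15 were higher with B2m and none was lower. The immunoproteasome subunits Psmb9 (0.27 ± 0.03) and Psmb8 (0.24 ± 0.03) had the largest slopes, and the peptide transporter genes Tap1 (0.15 ± 0.03) and Tap2 (0.10 ± 0.03) and the class I transactivator Nlrc5 (0.14 ± 0.04) also passed in the limma fit. The general chaperone Canx and the regulatory factor X genes Rfx5, Rfxap and Rfxank did not.

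Markers of cell types moved with B2m too. Of the microglial markers 7 of 8 were higher (C1qc 0.21 ± 0.02, Aif1 0.18 ± 0.02, Tmem119 not called at 0.04 ± 0.03) and of the endothelial ones 5 of 7 (Cdh5 0.17 ± 0.03, Flt1 not called at -0.03 ± 0.02). The summed level of the 8 microglial markers ranged from 252 to 484 CPM in hexadecimal and from 236 to 516 CPM in decimal libraries. That of the endothelial markers ranged from 229 to 537 CPM in hexadecimal and from 264 to 534 CPM in decimal libraries. Interferon response genes were higher in 7 of 8 cases (Mx1 0.33 ± 0.07), and none of 5 dopamine neuron markers passed. T cell markers summed to at most 3.09 CPM in hexadecimal and 2.66 CPM in decimal libraries, B cell markers to at most 2.80 and 2.74 CPM, and none reached the filter. With the microglial and endothelial levels as further covariates 8 of 17 RT1 genes still passed, all higher, beside 2607 higher and 2658 lower of 15545 genes in that fit, while RT1-M3-1 (adjusted p = 0.108), RT1-N3 (adjusted p = 0.403) and RT1-CE13 (adjusted p = 0.878) did not in limma. In bulk tissue more cells of a type and more RNA per cell cannot be told apart.

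Between the formats, 1 of the 17 genes was higher in hexadecimal than in decimal libraries and 1 lower, against 14.3% (2224) and 23.7% (3688) of all genes tested (2854 and 2966 with median-of-ratios scaling). RT1-CE4 had a median of 4.59 CPM (1.74 to 11.3) in hexadecimal and 4.20 CPM (1.84 to 8.42) in decimal libraries, a difference of 0.19 ± 0.07 log2 units (SE, limma adjusted p = 0.0321). RT1-CE15 had a median of 1.04 CPM (0.325 to 20.5) in hexadecimal and 1.23 CPM (0.362 to 13.0) in decimal libraries, a difference of -0.50 ± 0.19 (limma adjusted p = 0.0277). The groups overlapped in both genes. The medians of RT1-CE15 lie in its lower range in both formats, whereas 13 of 87 hexadecimal and 18 of 53 decimal libraries were in its upper range. RT1-CE16 differed by -0.48 ± 0.34 (limma adjusted p = 0.257). With B2m as a covariate the call of RT1-CE4 was lost (adjusted p = 0.0666), and with all libraries that of RT1-CE15 (adjusted p = 0.0759). The slope on B2m did not differ between formats in any of 15545 genes by limma's interaction test, with 850 genes and none of the 17 at an unadjusted p below 0.05.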

How the data were processed

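The deposited table holds log2 values per gene and library, as the authors' file name says. Per the submitters' processing notes the authors used kallisto 0.48, and the genome build and library kit are not given in the sources used here. No label states what the log2 was taken of. The deposited log2 values behave as log2(estimated count + 1): a value of 0 stays 0, and after back-transformation 55.7% of those under 100 come out whole to within 0.001. They were back-transformed, divided by the library total and expressed as log2(CPM + 1), so a fold change of a low gene is understated. As these are not raw counts, no count test was used.

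The genes and lists were chosen with earlier results of these data known. Genes with a mean of at least 1 over the libraries with Th of 10 CPM or more were tested. Fits across all genes used limma 3.58.1 (R 4.3.3) with Benjamini-Hochberg adjustment over all genes and a threshold of 0.05, checked on simulated data. Correlations used 100000 two-sided permutations (Python 3.11.15, scipy 1.17.1). Promoter windows were aligned with Biopython 1.88. Named are all genes past the filter, the 5 most opposite and 5 most concordant pairs, and the 5 other genes with the largest absolute r with RT1-CE16 and with RT1-CE15. Alternatives were the pseudocount (0.1 and 5), median-of-ratios scaling, other sets of libraries, other covariates, other interval widths and no filter. Identifier format may stand for a batch or cohort, which the labels do not say. The 31 samples labelled as removed were not analysed here.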

Additional observations from a re-analysis of the deposited data

How the results depend on the processing

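RT1-CE16 and RT1-CE15 were the genes with separate ranges under the other pseudocounts, median-of-ratios scaling, all libraries, and without relabelled and recovered libraries or library 39. With an interval of 1 log2 unit 1 gene was left, RT1-CE16, because that of RT1-CE15 is 0.94 wide. Decimal libraries alone added RT1-O1l1 and no filter added RT1-A1. The 10 named pairs kept their sign and call under all 10 alternatives. Without the filter 46 opposite and 94 concordant pairs were counted of 820, and with format and B2m regressed out 28 and 33 of 136. Shares for pairs of other genes are not given under these settings. Whether such pairs change in the same way was therefore not tested.

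With B2m, 5 RT1 genes were higher among decimal and 6 among hexadecimal libraries alone, where fewer libraries were tested. Between formats 0 genes were higher with B2m added, 5 with all libraries and 0 without the filter, and 0 were lower with all libraries and without the filter. The cause of these changes was not tested. Shares over all genes are not given for these settings, so the counts have no background beside them.

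Of the genes within 5 Mb that went with RT1-CE16, 10 were called among decimal and 9 among hexadecimal libraries, and of those elsewhere 9 with a pseudocount of 0.1, 7 without relabelled and recovered libraries and 0 in either format alone. For RT1-CE15 the counts within 5 Mb were 5 (decimal) and 3 (hexadecimal), and elsewhere 1 with B2m added, 1 with median-of-ratios scaling and 2 among decimal libraries. No paired analysis was possible because each library has its own identifier and the labels pair none of them. Near-identical copies, overlapping spans and a reference of 1 strain limit how reads were assigned, and without genotypes or strand no state can be tied to a gene copy.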

Other observations

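The 11 libraries with less than 10 CPM of Th were not used to set the ranges. In them RT1-CE16 had 23.5 to 42.9 CPM in 4 libraries and 0.534 to 0.712 CPM in 3. In the other 4 it had 6.80 to 9.07 CPM, inside the interval that was empty in the 141 libraries. RT1-CE15 had 4.25 to 7.51 CPM, likewise inside its interval, in 4 libraries and 0.193 to 0.652 CPM in 7. The 4 libraries with RT1-CE15 inside its interval all had RT1-CE16 above or inside its own, and none had it below. RT1-A1 stayed at or below 0.816 CPM in all 11, and RT1-CE7 reached 3 counts in 1.

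Some RT1-M genes that failed the filter had counts in these 11 libraries. RT1-M6-2 had 1.83 to 7.15 CPM (median 4.36 CPM), where the 141 libraries had 0 to 2.44 CPM (median 0.596 CPM). RT1-M6-1 had 0.475 to 3.19 CPM (median 1.60 CPM), where the 141 libraries had 0 to 1.01 CPM (median 0). RT1-CE5 had 3.86 to 8.07 CPM, where the 141 libraries had 7.17 to 27.3 CPM. The 11 libraries were set apart by a measured gene and are no group of the study, so these values were not tested.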
